A study of Mus musculus with 4 samples.

Results

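The circular RNAs (circRNAs) described here come from 8 collagen genes, Col1a1, Col1a2, Col3a1, Col5a1, Col5a2, Col6a1, Col6a3 and Col12a1. A circRNA was counted for a gene when both ends of its back-splice junction lay inside the gene's RefSeq span on mm10, with 1 bp of tolerance. This gave 127 of the 40909 circRNAs of the series (0.310%). No measured level entered that rule, but the 8 genes were chosen with earlier results of these data known. Within each gene all circles lie on 1 strand. The cells were primary mouse articular chondrocytes of passage 1 to 3. The treated group was 2 libraries of cells kept for 24 h with 10 ng/ml recombinant human interleukin-1β (IL-1β), an inflammatory cytokine. The control group was 2 libraries whose source label names only the same cells. The control records carry the same IL-1β treatment text as the treated ones, so the groups rest on the source label. Each library was made from RNA freed of ribosomal RNA and digested with RNase R, which removes linear RNA. The labels state neither strain nor age, nor whether replicates were separate cultures or animals. The p-values therefore reflect variation among 4 libraries that may be technical only.

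A circRNA forms when the end of an exon is spliced back to the start of the same or an upstream exon, and reads across that junction count the circle. Collagen genes carry many short exons that encode the repeats of the triple helix. Types I, III and V assemble into fibrils, type VI forms the beaded filaments of the pericellular matrix, and type XII sits on the fibril surface. Healthy hyaline cartilage is built mainly on type II collagen, and articular chondrocytes kept in monolayer culture are known to shift from type II towards type I collagen. IL-1β is known to lower collagen synthesis and raise collagen breakdown in chondrocytes.

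Library totals were 895774 and 980542 junction reads for IL-1β, against 1198010 and 1203855 for control. Levels below are CPM, the junction reads of a gene or circle after scaling for library size with TMM factors. A junction is 1 site whatever the length of the gene. The cell label could not be checked from circles. Of 18 chondrocyte markers only Hapln1, Col9a3 and Col11a2 had any junction read, together 0 and 4 reads under IL-1β, against 0 and 9 in control. Acan, Col2a1, Sox9 and Comp had none. Linear RNA was not analysed here. Of markers of other cells, 0 of 7 blood cell genes had a read. Of 6 endothelial genes Flt1 had 501 reads and Pecam1 had 8 in 1 library, and Cdh5, Kdr, Tek and Vwf were at 0. Of 5 adipocyte genes Lpl had 3 reads, and of 5 skeletal muscle genes Ttn had 7.

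The first question was which collagen genes yield circles in these cells. Circle output was concentrated in Col5a1, which encodes a chain of type V, the collagen that starts fibrils and limits their diameter, and in Col12a1, the fibril-associated type XII chain. These 2 genes held 86.3% of the 5664 collagen junction reads. Col5a1 ranked 244 and Col12a1 536 by reads among 6930 host genes. The genes of type I collagen, the main fibril collagen of bone and tendon, ranked 2109 for Col1a2 and 2614 for Col1a1, and Col3a1, the type III chain, ranked 4642.

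Col5a1 had 713 and 852 CPM in IL-1β cultures, against 770 and 835 CPM in the controls. Col12a1 had 228 and 269 CPM under IL-1β, against 369 and 588 CPM in control. Both stood above the other 6 genes in every library, and Col5a1 above Col12a1. Col5a2, the partner chain of type V, had 29.0 and 32.0 CPM under IL-1β, against 55.5 and 90.2 CPM in control. Col1a2 had 41.3 and 5.17 CPM under IL-1β, against 41.0 and 115 CPM in control. Col1a1 had 20.1 and 24.8 CPM under IL-1β, against 35.9 and 42.9 CPM in control. The range of Col1a2 took in levels of both Col5a2 and Col1a1 within each group, so their order is not settled. Of the type VI chains, Col6a3 had 10.0 and 7.24 CPM under IL-1β, against 53.8 and 35.9 CPM in control. Col6a1 had 3.35 and 3.10 CPM under IL-1β, against 17.1 and 26.3 CPM in control. Col3a1 had 6.69 and 0 CPM under IL-1β, against 4.27 and 10.5 CPM in control, the lowest control levels of the 8. A count of 0 in IL-1β 2 allows up to 3.10 CPM by counting error alone, and PCR copies are not independent molecules.

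**Figure D1:**
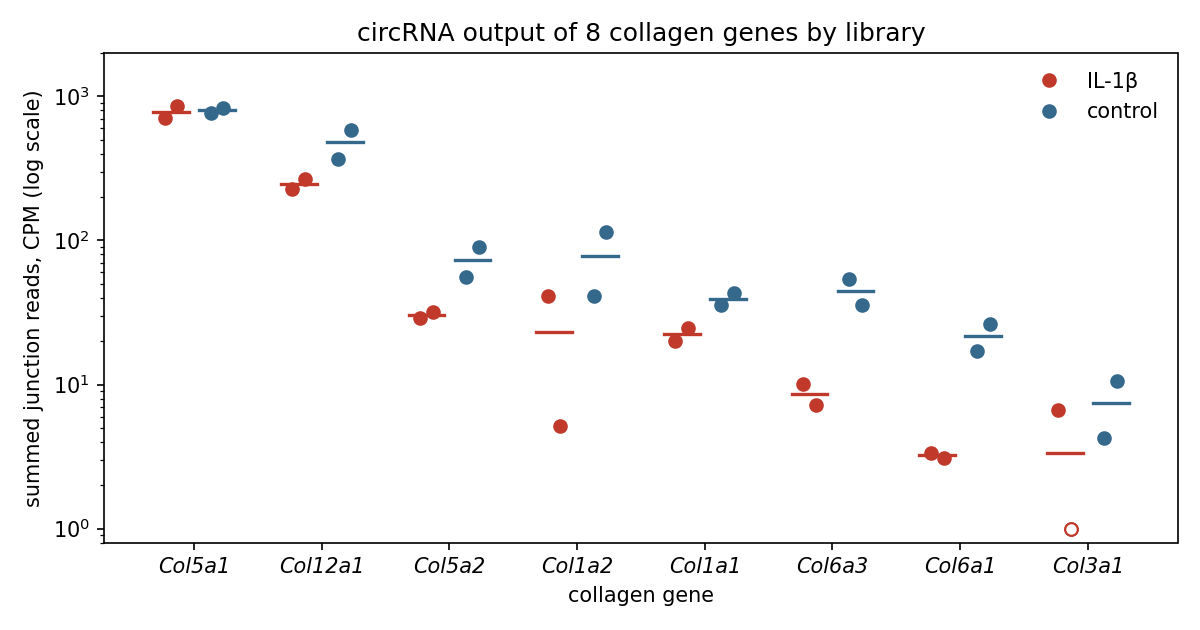
Summed back-splice junction reads of each collagen gene in CPM on a log axis, with IL-1β (red) left of control (blue), 1 point per library and a line at each group mean. The open circle is a library with 0 reads, drawn at 1. Col5a1 lies between 713 and 852 CPM in all libraries, and the IL-1β points lie below both control points in 5 genes.

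Per length of the gene the order was partly different. Col5a1 gave 21.7 reads per kb of its span over the 4 libraries, Col12a1 12.8, Col1a1 7.91, Col1a2 6.15, Col6a1 3.25, Col5a2 1.74, Col6a3 1.56 and Col3a1 0.603. The number of distinct circles did not follow the reads. Col12a1 gave 32 circles, Col5a1 23, Col1a2 22, Col5a2 17, Col1a1 13, Col6a1 and Col6a3 8 each, and Col3a1 4. Col1a1 and Col1a2, short genes of 16.8 and 35.9 kb, gave 7.73 and 6.12 circles per 10 kb, more than the 1.50 of Col5a1 and the 2.62 of Col12a1.

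The collagen circles seldom recurred between libraries. Of the 127, 111 (87.4%) were read in 1 library only, against 58.6% of all circRNAs, and 6 were read in all 4 libraries. The median circle had 7 reads over the libraries, against 13 over all circRNAs, and 111 circles had under 20. Among circles with 1 to 9 reads, which hold most collagen circles, the shares were close: 80 of 81 came from 1 library, against 97.5% of all such circRNAs. With 10 to 19 reads 28 of 30 collagen circles did, against 73.9% of all. With 20 to 49 reads 2 of 7 did, against 16.9%, and with at least 50 reads 1 of 9, against 0.860%. No test was made of these shares, since circles of 1 gene share a transcript and a library.

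All 22 circles of Col1a2, all 4 of Col3a1 and all 8 of Col6a1 were read in a single library each. In Col1a1 12 of 13 were, in Col5a2 16 of 17 and in Col6a3 7 of 8. Col5a1 and Col12a1 had 17 of 23 and 25 of 32 such circles, yet these carried only 4.43% and 10.5% of the reads of those genes. The extreme case was the leading circle of Col1a2 (circRNA.32730, chromosome 6, 4529068 to 4532797), with 0 reads in both IL-1β libraries, 0 in control 1 and 76 in control 2. In Col5a1 circRNA.22650 (chromosome 2, 27886450 to 27995750), named after its values were seen, spans 109.3 kb of the gene and had 39 reads, all in control 2. The leading circles of Col3a1 (circRNA.19369) and Col6a1 (circRNA.1636) had 9 and 16 reads, also all in control 2.

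**Figure D2:**
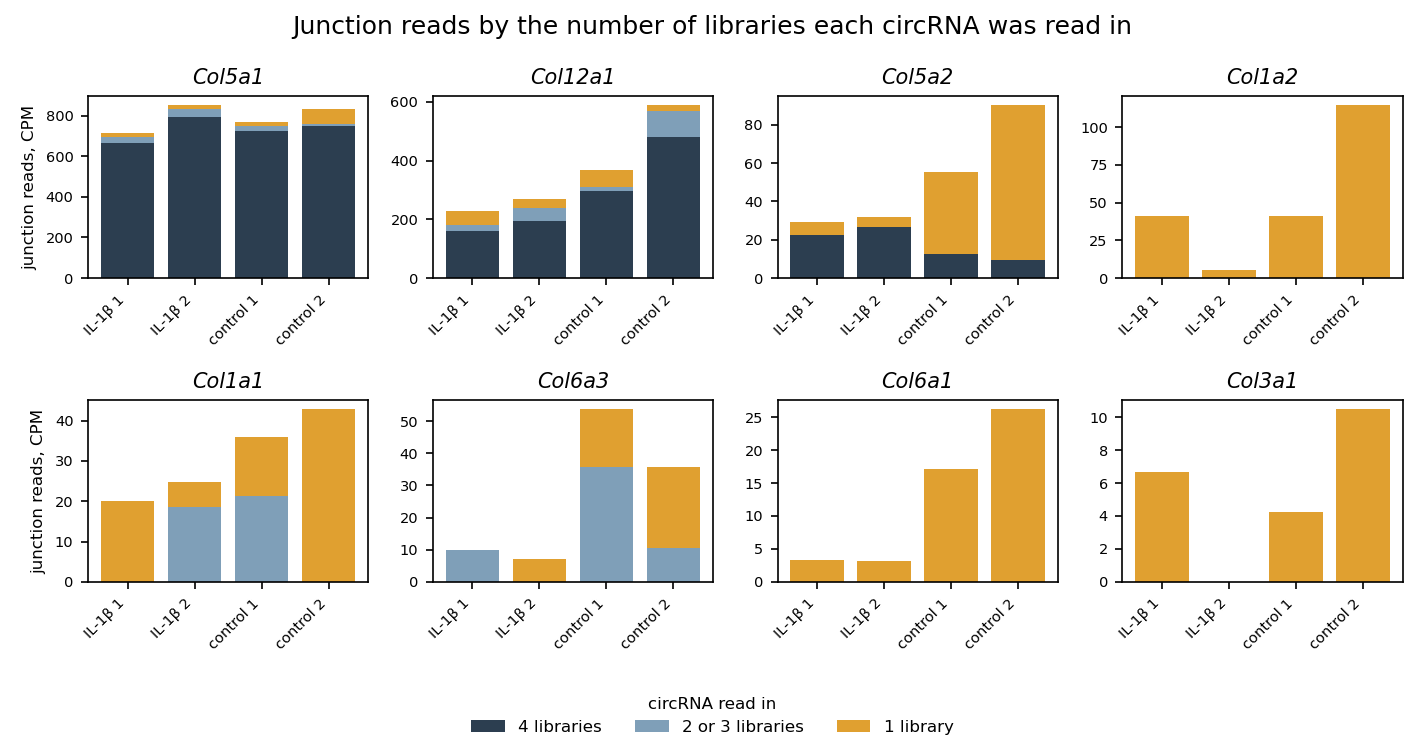
Junction reads of each collagen gene in CPM per library, IL-1β libraries left of controls, stacked by whether the circRNA was read in 4 libraries (dark), 2 or 3 (blue) or 1 (yellow). Vertical scales differ between genes. Col5a1 and Col12a1 consist mostly of circles read in all 4 libraries, while Col1a2, Col6a1 and Col3a1 consist wholly of circles read in 1.

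The 6 circles read in every library carried 77.1% of the collagen junction reads: 3 from Col5a1, 2 from Col12a1 and 1 from Col5a2. In Col5a1, circRNA.22652 (chromosome 2, 27922017 to 27929541, plus strand) had 528 and 656 reads under IL-1β, against 744 and 745 in control. It made up 82.6% (95% exact binomial interval 79.5 to 85.5) and 79.6% (76.7 to 82.3) of the gene's reads under IL-1β, against 82.6% (79.9 to 85.0) and 78.1% (75.3 to 80.7) in control, so this share was nearly constant. The intervals cover counting error only. The other two, circRNA.22658 (27949627 to 27953025) and circRNA.22659 (27951287 to 27952446), overlap each other further along the gene. The first had 42 and 65 reads under IL-1β, against 54 and 58 in control, and the second 28 and 45 under IL-1β, against 48 and 54 in control.

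In Col12a1, circRNA.40312 (chromosome 9, 79639672 to 79647721, minus strand) had 103 and 157 reads under IL-1β, against 223 and 455 in control. A second circle, circRNA.40313 (79639672 to 79650044), had 41 and 32 reads under IL-1β, against 124 and 95 in control. The circles share their downstream end at 79639672. With 2 circles read in 1 library each, that end took part in 79.0% of the Col12a1 reads. The share of circRNA.40312 was 50.5% (43.4 to 57.5) and 60.4% (54.2 to 66.4) under IL-1β, against 51.6% (46.8 to 56.4) and 67.7% (64.0 to 71.2) in control. It varied more between the control libraries than between the group means. Outside this pair, the other 30 Col12a1 circles summed to 66.9 and 73.4 CPM under IL-1β, against 72.6 and 107 CPM in control.

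In Col5a2 the circle read everywhere, circRNA.19389 (chromosome 1, 45429898 to 45442868, minus strand), had 20 and 26 reads under IL-1β, against 15 and 11 in control. Its upstream end, 45442868, also closed 3 further circles that were each read in 1 control library. The remaining 16 circles of the gene summed to 6 and 5 reads under IL-1β, against 50 and 92 in control. The most read of these, circRNA.19386 (chromosome 1, 45417588 to 45421274), had 0 and 0 reads under IL-1β, against 22 and 0 in control.

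**Figure D3:**
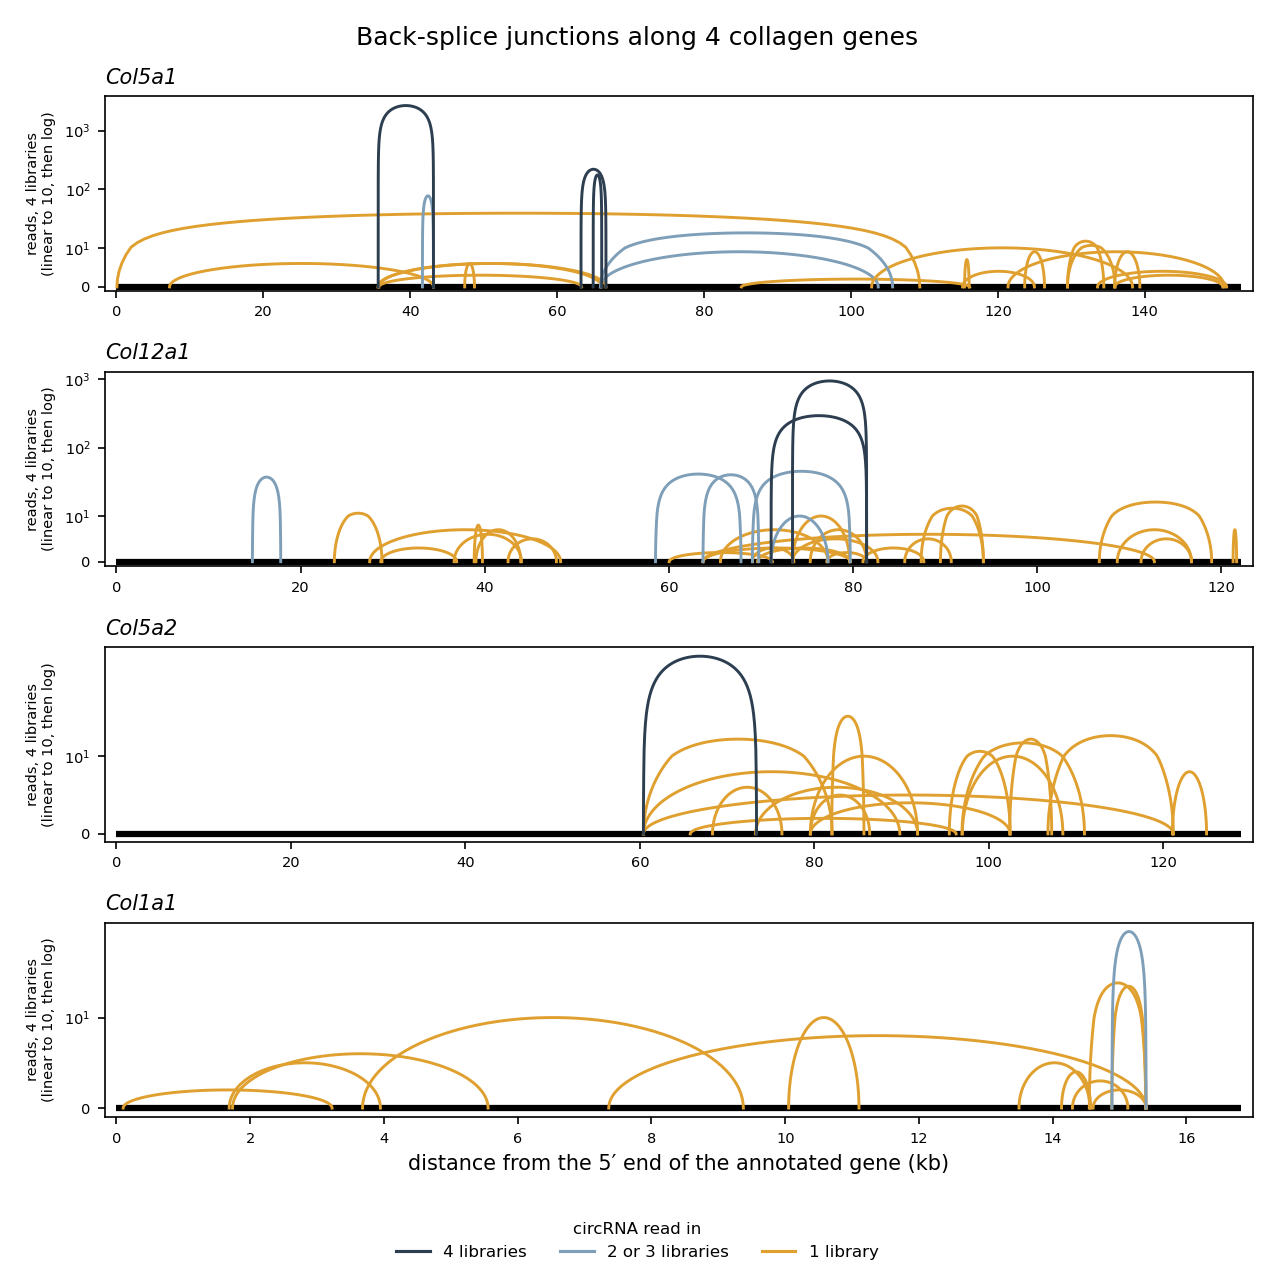
Back-splice junctions along Col5a1, Col12a1, Col5a2 and Col1a1, drawn as arcs between the joined ends at their distance in kb from the 5′ end of the annotated gene. Arc height is the total reads over 4 libraries (linear to 10, then log), and colour the number of libraries with reads. Circles read in all 4 libraries sit in narrow stretches of Col5a1 and Col12a1 and at 1 place in Col5a2, amid low arcs read in 1 library.

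The collagen circles spanned 0.384 to 109.3 kb of genome, with a median of 6.21 kb against 10.6 kb over all circRNAs. Exon borders were not used here, so exon or intron is not stated. Of the collagen circles 42.5% had an end in common with another circle of the gene, against 77.9% of all circRNAs with a host. These 2 shares were not matched for reads per circle (median 7 in collagen circles, against 13 over all circRNAs) or for circles per gene. By number, most collagen circles lay towards the 3′ side, and no such share was computed over all hosts. The middle of the circle fell in the downstream 50% of the gene for 17 of 17 Col5a2 circles, 8 of 8 Col6a1, 24 of 32 Col12a1, 16 of 22 Col1a2 and 13 of 23 Col5a1 circles. In Col1a1 7 of 13 fell in the last 20%. Reads did not follow this in Col5a1. There circRNA.22652, with 80.6% of the gene's reads, had its middle at 25.7% of the gene, counted from the 5′ end. The end at chromosome 11, 94951620 closed 4 Col1a1 circles, which held 53.4% of that gene's reads. Of these circles only circRNA.5026 was read in at least 2 libraries, with 0 and 18 reads under IL-1β, against 25 and 0 in control.

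The second question was whether collagen circles differ with IL-1β. Nearly all gene sums were lower with IL-1β, but none passed the test over all hosts. The reads of the 8 genes together came to 1051 and 1193 CPM under IL-1β, against 1347 and 1744 CPM in control, 1.38-fold lower with IL-1β (1122 ± 101 CPM under IL-1β, against 1545 ± 281 CPM in control, mean ± SD, n = 2 each). No p was computed for this sum, since the members were chosen with earlier results known. All 8 fitted log2 changes were negative, from -2.70 to -0.037, although that of Col5a1 became 0.0068 when libraries were scaled by total reads. The median was -1.19, beside -0.031 over the 4879 hosts tested, of which 52.0% were negative. Fewer cells with these circles and fewer circles per cell cannot be told apart in such samples.

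With edgeR's quasi-likelihood test and a threshold of 0.05 on the adjusted p, 0 of the 8 genes passed, as did 0% of all tested hosts. At an unadjusted p under 0.05, Col12a1 and Col6a3 were lower (2.46% of all hosts were lower at that level). In 5 genes, Col1a1, Col5a2, Col6a1, Col6a3 and Col12a1, both IL-1β libraries lay below both controls, as in 18.9% of all hosts. In 0 did they lie above, as in 17.0%. With the depth taken from the authors' SRPBM values Col1a2 joined the 5, and 23.9% of all hosts lay below and 9.92% above. That scaling moved the median of all hosts to -0.24.

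Col12a1 averaged 248 ± 29.1 CPM under IL-1β, against 479 ± 155 CPM in control, 1.93-fold lower with IL-1β (log2 change -0.95 ± 0.30, SE; adjusted p = 0.882 in edgeR). Its unadjusted edgeR p was 0.0123. Both circles read in every library were lower too. They held 78.4% of the reads of the gene, so their direction is not independent of the sum. The fitted log2 change was -1.04 ± 0.41 for circRNA.40312 (adjusted p = 0.886) and -1.24 ± 0.47 for circRNA.40313 (adjusted p = 0.886), and for both the IL-1β libraries lay below the controls, as for 17.2% of all tested circRNAs. None of the 16 collagen circles tested passed, against 0.0196% of all 15333. Of the 16, 11 had a negative and 5 a positive log2 change, and 3 were read in 1 library only. Among them only circRNA.40312 and circRNA.40313 had an unadjusted edgeR p under 0.05. At that level 1.62% of all tested circRNAs were lower. Without control 2, which had the highest level, the log2 change of the gene was -0.57, and without control 1 it was -1.21.

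Col5a1 stood at 782 ± 98.3 CPM under IL-1β, against 803 ± 46.2 CPM in control, a log2 change of -0.037 ± 0.21 (adjusted p = 1.00 in edgeR). The fitted log2 change of its main circle was 0.0070 ± 0.23, and those of circRNA.22658 and circRNA.22659 were 0.27 ± 0.51 and -0.15 ± 0.59, all smaller than their errors. The difference in response between Col12a1 and Col5a1 was not tested.

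Col5a2 averaged 30.5 ± 2.15 CPM under IL-1β, against 72.9 ± 24.5 CPM in control (log2 change -1.25 ± 0.58, adjusted p = 0.882 in edgeR). Its one recurrent circle went the other way. circRNA.19389 stood at 24.3 ± 3.30 CPM under IL-1β, against 10.9 ± 2.71 CPM in control, with both IL-1β libraries above both controls (as for 16.4% of all tested circRNAs), and it did not pass either (log2 change 1.15 ± 1.25, adjusted p = 1.00). It made up 76.9% (56.4 to 91.0) and 83.9% (66.3 to 94.5) of the Col5a2 reads under IL-1β, against 23.1% (13.5 to 35.2) and 10.7% (5.45 to 18.3) in control. The lower sum of the gene therefore lay wholly in circles read in 1 library each.

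The other genes had few reads and no circle read in all libraries. Col6a3 had 9 and 7 reads under IL-1β, against 63 and 41 in control (log2 change -2.36 ± 0.96, adjusted p = 0.882 in edgeR). Its unadjusted edgeR p was 0.0381. Its leading circle circRNA.20306 (chromosome 1, 90794010 to 90798197) had 9 and 0 reads under IL-1β, against 42 and 12 in control. Col6a1 had 3 and 3 reads under IL-1β, against 20 and 30 in control, spread over 8 circles (log2 change -2.70 ± 1.77, adjusted p = 0.882). Col1a1 had 18 and 24 reads under IL-1β, against 42 and 49 in control (log2 change -0.81 ± 0.80, adjusted p = 1.00). Col1a2 had 37 and 5 reads under IL-1β, against 48 and 131 in control, a log2 change of -1.75 ± 0.95 (adjusted p = 0.882). It was -3.88 without IL-1β 1, -0.92 without IL-1β 2, -2.25 without control 1 and -0.82 without control 2, the library with 131 of the 221 reads. Col3a1 had 6 and 0 reads under IL-1β, against 5 and 12 in control (log2 change -1.12 ± 2.92, adjusted p = 1.00), and without IL-1β 2 its log2 change was -0.14.

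**Figure D4:**
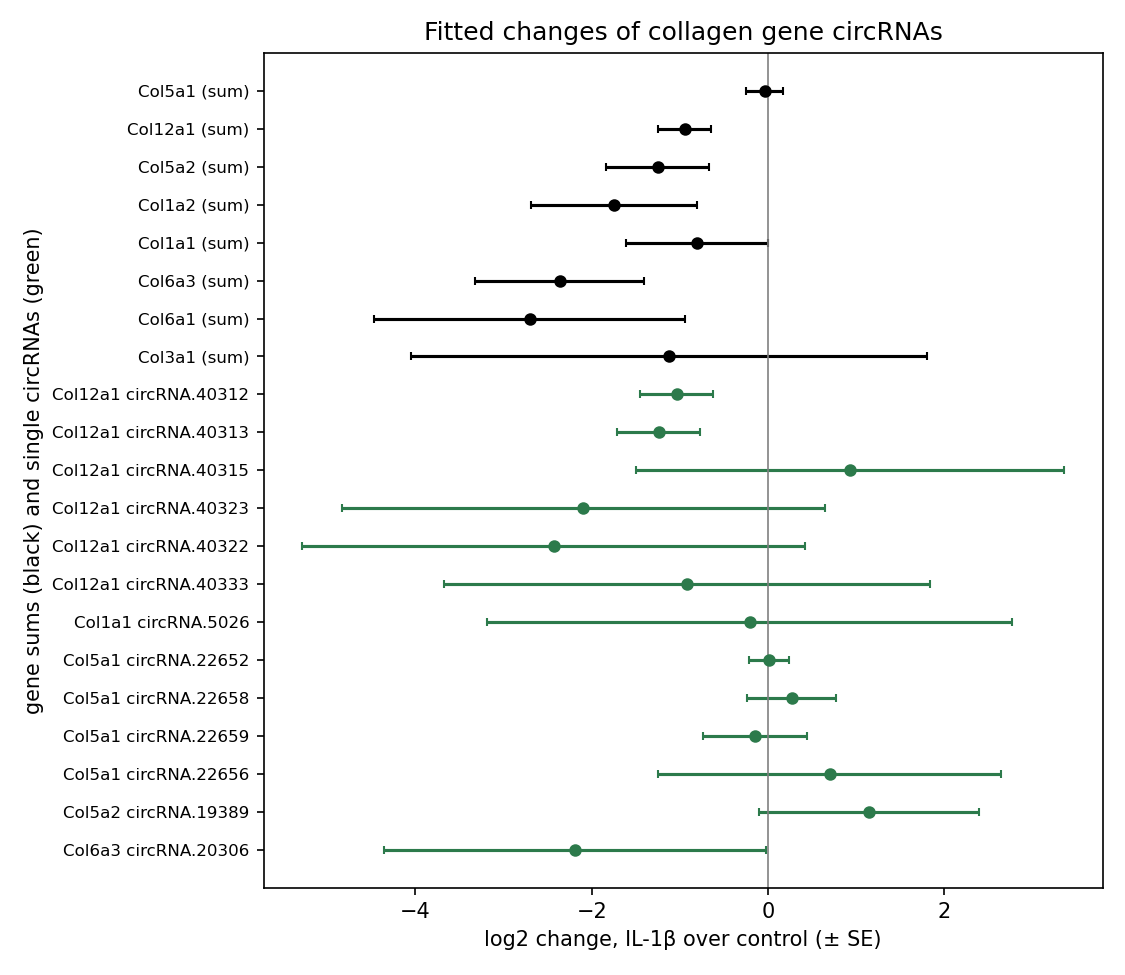
Fitted log2 change, IL-1β over control, with its SE for the summed reads of each gene (black) and for each tested circle with reads in both groups (green). The sums of 7 genes lie between -2.70 and -0.81 and that of Col5a1 near 0, while circRNA.19389 of Col5a2 lies on the positive side, and none passed the test.

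The circles were also split by recurrence, a division made after the values were seen and given without a test. The relative difference of the collagen sum was larger in the circles read in 1 library. Col12a1 ran the other way, with a log2 ratio of -0.037 for its circles read in 1 library and -1.13 for those read in all 4. Collagen circles read in 1 library held 131 and 75 reads under IL-1β, against 253 and 453 in control. In CPM this was 146 and 77.5 under IL-1β, against 216 and 397 in control. Circles read in all 4 libraries stood at 850 and 1014 CPM under IL-1β, against 1032 and 1242 CPM in control. Their log2 ratio was -0.29, against -1.45 for circles read in 1 library. Over all circRNAs these ratios were -0.045 and -0.30, in the same order. Control 2 alone held 37.8% of the collagen circles read in 1 library, against 24.4% of all such circRNAs, and IL-1β 2 held 12.6% against 24.8%. Of the 127 circles 40 were read only with IL-1β, 73 only in control and 14 in both groups (31.5%, 57.5% and 11.0%). Over all circRNAs these shares were 29.8%, 33.9% and 36.3%. The control libraries held more junction reads, but by the SRPBM constant control 1 (11.8) was below IL-1β 1 (11.9) and IL-1β 2 (13.4). Among circles read in 1 library 65.8% of the collagen circles were from control, against 53.3% of all, and no test was made. Just 2 were read in both IL-1β libraries and no control, and 0 in both controls and no IL-1β library.

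The lists around these genes gave no calls either. Of 36 other collagen genes 13 had circles and 7 could be tested, 1 with a positive and 6 with a negative log2 change (median -0.53). Their lowest p belonged to Col24a1, a fibrillar collagen gene with 0 and 0 reads under IL-1β, against 7 and 26 in control, then to Col4a6, with 0 and 2 reads under IL-1β, against 0 and 37 in control, and Col27a1, with 3 and 36 reads under IL-1β, against 18 and 49 in control. The basement membrane gene Col4a5 was the most read, with 50 and 71 reads under IL-1β, against 53 and 91 in control.

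Of 35 genes that make or mature collagen 12 were tested, 2 with a positive and 10 with a negative log2 change (median -0.65), and 0 passed. Adamts14, a protease that cuts the amino-terminal propeptide from procollagen, ran against most of the list with 20 and 45 reads under IL-1β, against 3 and 2 in control (log2 change 3.92 ± 1.42, adjusted p = 0.882 in edgeR). Its unadjusted edgeR p was 0.0242, and 2.09% of all hosts were higher at an unadjusted p under 0.05. P4ha3, a prolyl 4-hydroxylase subunit needed for a stable triple helix, had 140 ± 27.4 CPM under IL-1β, against 246 ± 62.9 CPM in control (log2 change -0.81 ± 0.34, adjusted p = 0.882). The unadjusted edgeR p of P4ha3 was 0.0412, and 2.46% of all hosts were lower at an unadjusted p under 0.05. Loxl1, a cross-linking enzyme, had 22 reads in control 1 and 0 elsewhere.

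Of 18 genes for collagen breakdown and collagen receptors 9 were tested, 3 with a positive and 6 with a negative log2 change (median -0.77), and 0 passed. Itga10, the α chain of a chondrocyte collagen-binding integrin, had 0 and 0 reads under IL-1β, against 25 and 18 in control (adjusted p = 0.882 in edgeR). Its unadjusted edgeR p was 0.0451, and 2.46% of all hosts were lower at an unadjusted p under 0.05. Ctsk, the collagen-cutting cathepsin K, had 57.3 ± 25.8 CPM under IL-1β, against 129 ± 57.7 CPM in control, and Mmp2, a gelatinase, 38.5 ± 13.4 CPM under IL-1β, against 66.4 ± 31.1 CPM in control (adjusted p = 0.882 and 0.971 in edgeR). Mmp3 and Mmp13, matrix metalloproteinases, had no junction read. Of 10 fibroblast markers 3 could be tested, Fn1, Pdgfra and Postn, and 0 passed (lowest adjusted p = 0.925 in edgeR, none with an unadjusted p under 0.05). Their log2 changes were -0.45, -0.83 and -0.47, and the Postn levels of the groups overlapped. The list summed to 193 and 174 CPM under IL-1β, against 240 and 286 CPM in control, with Thy1, Fap, Tnc, Dcn, Lum and S100a4 at 0. The part of these markers in the collagen result was not tested.

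Among 2205 other hosts with at least 200 reads, the profiles over the 4 libraries most like that of the collagen sum were those of Tmtc4, Mir100hg and Rnf111. Their mean absolute differences from it were 0.016, 0.046 and 0.050 on the log2(CPM + 1) scale. With 4 libraries such a likeness is a description only.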

How the data were processed

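Back-splice junction reads of 4 RNase R-treated, strand-specific libraries were used. Per the file headers, the authors deposited raw counts of these reads. A depth-scaled signal named SRPBM was deposited beside each count. Dividing counts by SRPBM gave 1 constant per library (11.9 and 13.4 for IL-1β, 11.8 and 16.1 for control), which served as an alternative depth. All 4 single-library tables held the values of the series table. The submitters' processing notes name mm10 and Bowtie2. No source used here gives the caller of the circles, filters or treatment of duplicates. Since the treatment protocol is worded alike for all samples, groups follow the source label.

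Circles were placed in RefSeq genes of GRCm38.p6 (the mm10 assembly), in the only coding gene, or failing that the only other gene, that held both ends with 1 bp of tolerance. This placed 39571 circRNAs in 6930 hosts, and only 1 collagen circle also lay inside a non-coding gene. Junction reads per circRNA, and summed per host, were tested with edgeR 4.0.16 in R 4.3.3 (TMM, quasi-likelihood, no covariate) where at least 20 reads were present over the libraries, with Benjamini-Hochberg adjustment over all features at 0.05. All 8 genes and 16 of the 127 circles passed that filter. SE was taken as the log2 change over the root of the F statistic. Fits were also run on simulated counts with planted changes, and no result here rests on that run. The circles named are the 3 with most reads per gene among those tested and each gene's leading circle, and from each list the 3 tested genes with the lowest p; others were named after their values were seen. Members and lists were chosen with earlier results of these data known. Alternatives were RLE factors, library totals, SRPBM depth, DESeq2 1.42.0, a replicate block, other read filters, each library left out, only circles inside 1 gene on its main strand, and junctions within 5 nt summed. Python 3.11.15 was used for the other values. Depth limits the sparse genes most: 3 reads correspond to 2.56 to 3.35 CPM.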

Additional observations from a re-analysis of the deposited data

How the results depend on the processing

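No collagen gene or circle passed the threshold under any alternative, and the lowest adjusted p was 0.0685, for Col12a1 in DESeq2. The log2 ratio of the summed reads stayed between -0.64 and -0.26 and the median of the gene changes between -1.61 and -0.82. The counts over all features did depend on the setting. Hosts past the threshold numbered 0 with edgeR (222 at an unadjusted p under 0.05), 47 with DESeq2, 20 with the replicate block, 14 with at least 5 reads and 12 with no filter, and 0 to 2 with 1 library left out. For circRNAs the count was 3, against 101 with DESeq2, 61 with the replicate block, 63 with at least 5 reads, 0 with at least 50, 61 with no filter, 0 with junctions within 5 nt summed, and 0 to 4 with 1 library left out. The cause was not tested. Deviations from the group mean correlated at 0.033 between libraries of the same replicate number (2209 hosts). With 2 libraries per group this value cannot settle whether replicates were paired.

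Some values smaller than their errors changed sign. For Col5a1 the log2 change was 0.0068 with library totals and -0.17 to 0.086 with 1 library left out. For circRNA.22652 it was -0.23 with SRPBM depth and -0.12 to 0.089 with 1 library left out. With 1 library left out it was -0.044 to 0.49 for circRNA.22658 and -0.49 to 0.091 for circRNA.22659. For circRNA.40315 (Col12a1), at 0.93 ± 2.43 in the main fit, it was -0.084 to 6.86 with 1 library left out. For circRNA.5026 it was 0.038 with the replicate block and -6.56 to 0.78 with 1 library left out. Col3a1 could not be fitted with at least 50 reads or in 3 of the 4 fits with 1 library left out, for too few reads. Circles under 20 reads were not tested, which leaves out 111 of the 127.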

Other observations

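Some circles had only 1 end inside a collagen gene and were left out of the sums. All 3 of these, circRNA.19365, circRNA.19366 and circRNA.19367, lie on the minus strand, opposite to Col3a1, and share the end at chromosome 1, 45317504 inside that gene. Their other ends, at 45278284, 45286661 and 45310098, lie outside every RefSeq gene of the assembly. Each was read in 1 library, with 9 reads in IL-1β 2, 21 in control 2 and 7 in IL-1β 1.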
